A study of Mus musculus with 15 samples.

Results

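The genes described here carry the numbered symbols Trim and Rnf, the names of tripartite motif proteins and RING finger proteins. The arrays hold 136 such genes with a probe set of their own, 58 Trim and 78 Rnf. Where several probe sets name a gene, the one with the greatest mean (15 arrays) stood for it, and genes whose levels reached 5 (log2) in the mean of at least 1 group were kept. This left 85 genes, 30 Trim and 55 Rnf, among the 9045 genes that passed the same filter out of 18194 in all. Of the 85, 76 reached 5 in each of the 5 groups and 9 lay below 5 in at least 1 group. The levels thus chose the genes, and they are given below as a description. Just inside the limit lay Rnf227 (highest group mean 5.26), Rnf113a1 (5.86) and Trim13 (5.90). Just outside it lay Rnf32 (4.39), Trim45 (4.29) and Rnf43 (4.23).

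Expression was measured with Affymetrix arrays in lymphocytes from the spleen of mice of the mixed strain B6x129, in a study of the transcription factor c-Myc as an amplifier of expressed genes. There were 5 groups of 3 arrays. Quiescent B cells were sampled at 0 h and after 4 h with 25 ug/ml lipopolysaccharide (LPS), the cell wall component of bacteria that Toll-like receptor 4 senses. Resting T cells were sampled at 0 h, and T cells treated with concanavalin A (ConA, at 7.5 ug/ml), a lectin that activates them by binding sugars on their surface, at 4 h and 14 h. No genotype other than the strain is given, and no group was cultured without stimulus, so the effect of LPS or ConA and that of culture cannot be told apart. The labels do not say whether the 3 samples of a group came from separate animals or cultures, and p-values then measure only the spread between these samples.

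A RING domain is a zinc-binding fold that holds a ubiquitin-conjugating enzyme (E2) next to a substrate, and so lets the protein act as a ubiquitin ligase (E3). TRIM proteins join a RING to B-boxes and a coiled coil. Many are induced by interferon and act in antiviral defence, and others bind chromatin. RNF proteins share the RING and little else: among them are membrane proteins of endosomes and the endoplasmic reticulum (ER), ligases of the DNA damage response, and RBR (RING-between-RING) ligases, which pass ubiquitin through a cysteine of their own. In lymphocytes, members of both families act in innate sensing, in signalling to NF-kB and in the restraint of receptor signals.

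The arrays of a group correlated with each other at 0.992 to 0.998 over the genes tested, and the median within-group SD of the 85 genes was 0.09. B cell marker genes read 13.60 to 13.64 (log2 of their mean signal) on B arrays at 0 h and 5.89 to 6.13 on T arrays at 0 h, and T cell markers 3.46 to 3.70 and 12.40 to 12.46, as the labels have it. The B arrays also carried myeloid and erythroid markers, whose values are given beside the genes they move with. The 3' minus 5' difference of the dap spike-in RNA was 4.59 on T 0 h replicate 2 and 5.94 on T ConA 4 h replicate 1, against 1.82 to 2.67 on the other T arrays and 0.90 to 1.44 on B arrays. Without these 2 arrays, 50 of the 85 genes changed after 4 h with ConA in place of 52. The 3' minus 5' difference of actin was 0.39 to 0.49 on T 0 h arrays and 0.56 to 0.91 on ConA arrays. Leaving out arrays does not remove that difference, and it cannot be told apart from treatment. Each sample gave the same mass of RNA and the values were normalized together, so fewer cells of a type and less RNA per cell cannot be told apart. Values end at a lower limit of 2.24, and a fall to a level near it is a lower bound of the fall.

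After 4 h with LPS, B cells had changed levels of 72 of the 85 genes, 32 higher and 40 lower (limma, Benjamini-Hochberg adjusted p under 0.05). The share called among all genes tested was 79.9%, with 37.6% higher and 42.3% lower. Changes of at least 2-fold were found for 35 of the 85, 13 up and 22 down, against 42.8% of all genes (18.7% up and 24.1% down). The arrays of the 2 groups did not overlap for 74 of the 85 (81.6% of all genes). In T cells 52 changed after 4 h with ConA, 21 higher and 31 lower (65.9% of all genes, 33.4% higher and 32.5% lower). Of these 10 changed at least 2-fold, 5 each way (20.9% of all genes, 9.34% up and 11.5% down), and 54 of the 85 had groups that did not overlap (69.3% of all genes). After 14 h, 55 differed from 0 h, 18 higher and 37 lower (68.4% of all genes, 36.6% higher and 31.9% lower), 12 of them at least 2-fold, 5 up and 7 down (21.5% of all genes, 10.5% up and 11% down). Groups did not overlap for 61 genes (75.4% of all genes). The median change of the 85 genes was -0.13 with LPS, -0.07 after 4 h and -0.13 after 14 h with ConA, and that of all genes -0.05, 0.00 and 0.03. Trim genes had a median of -0.30 at 4 h with ConA, with 4 of 30 higher and 16 lower. For Rnf genes the median was 0.00, with 17 of 55 higher and 15 lower. The comparisons at 4 h and 14 h share the T 0 h arrays.

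**Figure D1:**
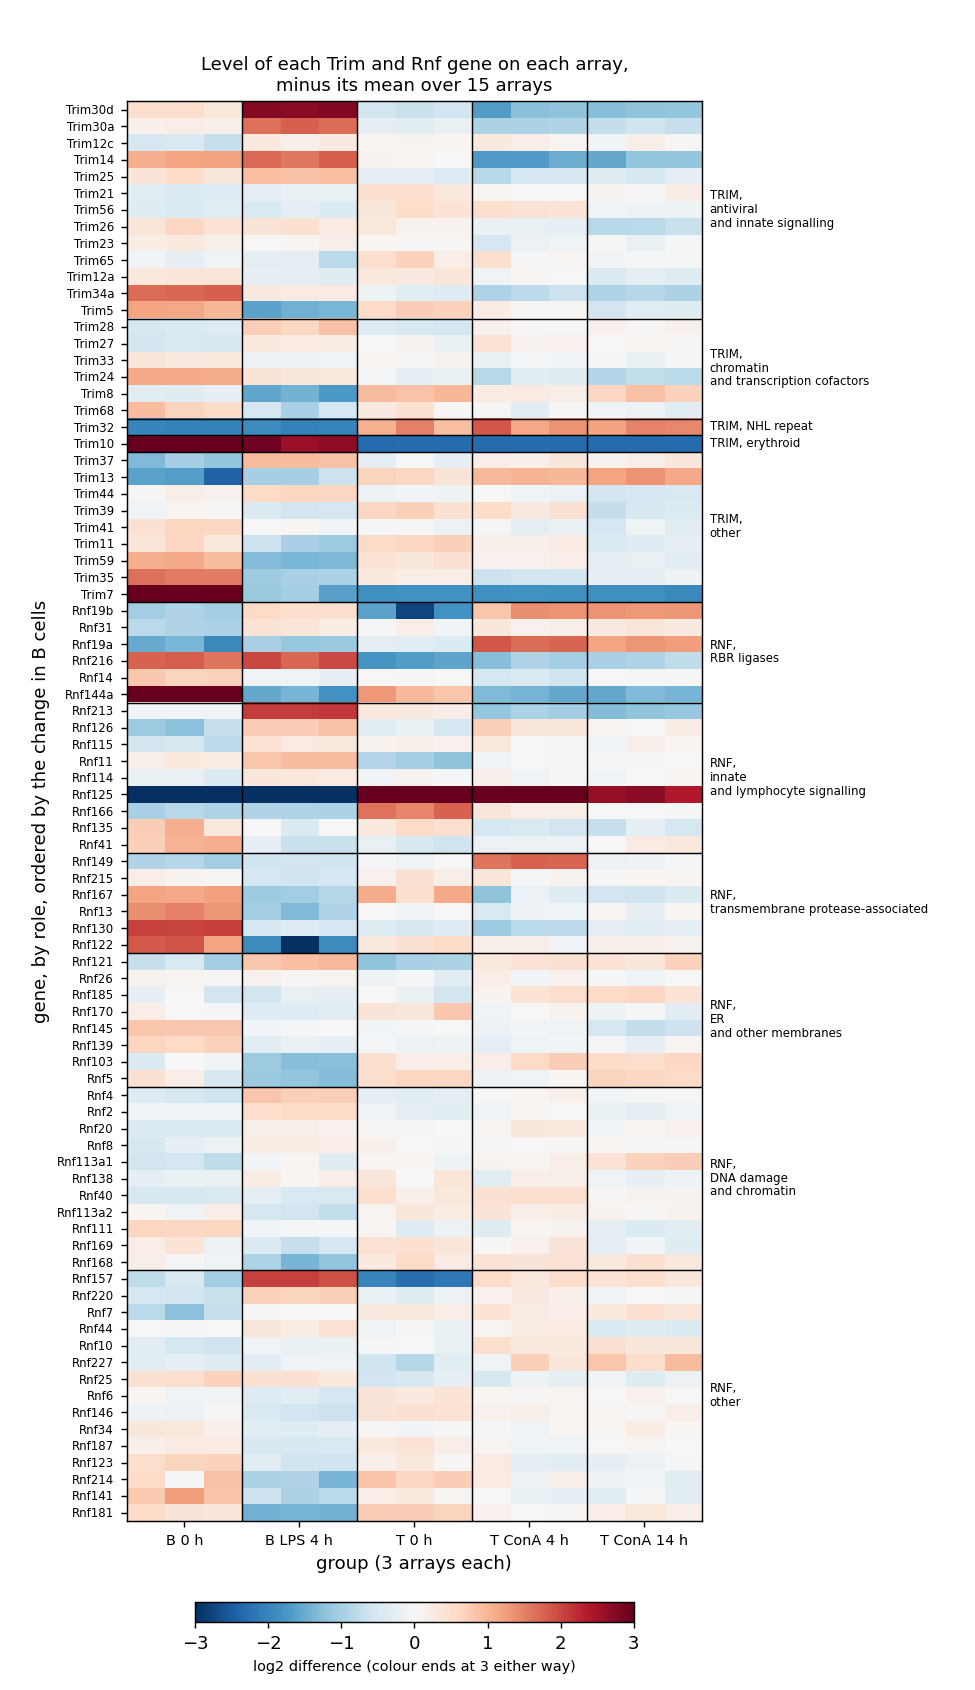
Level of each of the 85 genes (rows, grouped by role) on each of the 15 arrays (columns), as the log2 difference from that gene's mean over the arrays, red above and blue below, with the colour ending at 3 either way. Trim7 and Rnf144a are dark red only on the B 0 h arrays, Trim10 on the B arrays and Rnf125 on the T arrays, while Trim30a, Trim30d and Rnf213 are red on the B LPS 4 h arrays and blue on the ConA arrays.

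The 2 responses at 4 h share no arrays. Of the 85 genes, 17 rose in both (20.0%, against 24.2% of all genes) and 22 fell in both (25.9%, against 24.3%). By limma 0 fell with LPS and rose with ConA, and 0 at an unadjusted p under 0.05 in both, against 4.19% of all genes. Another 5 rose with LPS and fell with ConA (5.88%, against 3.23% of all genes): Trim30a, Trim30d, Trim14, Trim25 and Rnf213. The difference between the 2 responses was itself tested as an interaction, and passed for 64 of the 85 genes (66.1% of all genes). The response of B cells was higher for 24 and lower for 40 (31.3% and 34.8% of all genes). At least 2-fold it was 7 and 18 genes, 25 in all (13.9%, 18.5% and 32.4% of all genes).

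**Figure D2:**
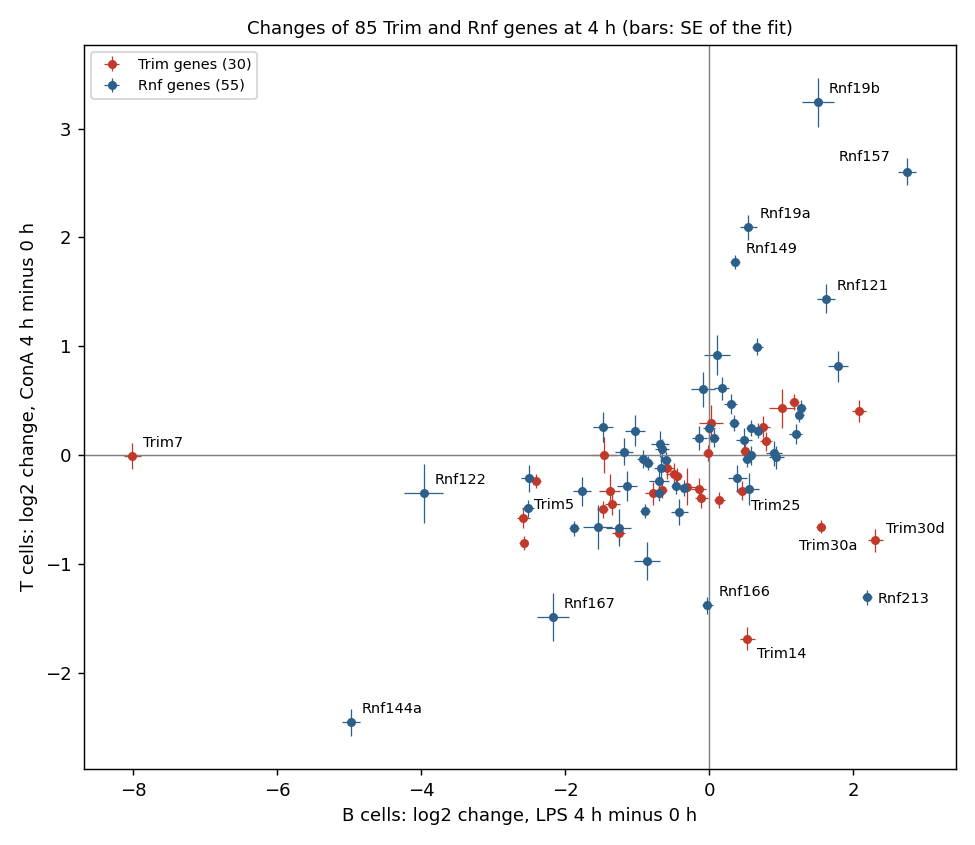
Log2 change with LPS in B cells (horizontal) against log2 change with ConA in T cells (vertical), both at 4 h against 0 h, for 30 Trim genes (red) and 55 Rnf genes (blue). Points are estimates from 3 arrays a group and bars are standard errors. Trim30a, Trim30d, Trim14, Trim25 and Rnf213 lie at the lower right, Rnf144a at the lower left and Rnf157 and Rnf19b at the upper right.

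With their brightest probe sets 10 of 13 Trim genes of antiviral and innate signalling fell in T cells at each time with ConA. Of all genes 32.5% fell at 4 h and 31.9% at 14 h. In LPS-treated B cells the group went both ways. With LPS 5 rose and 3 fell (median -0.02), against 37.6% and 42.3% of all genes. With ConA none rose at 4 h (median -0.40) or at 14 h (median -0.58), 10 fell at each time and 3 did not pass. At an unadjusted p under 0.05 there was no rise at either time, and the values above 0 were those of Trim12c (0.13) and Trim56 (0.02) at 4 h. The 10 were not the same genes throughout: Trim23 and Trim25 fell at 4 h only, and Trim56 and Trim65 at 14 h only. Some of the falls depend on the probe set. With the mean of all probe sets Trim21 (-0.34) and Trim34a (-0.05) did not pass at 4 h, and Trim23 and Trim25 gave 0.01 and 0.02. Without T 0 h replicate 2 and T ConA 4 h replicate 1, Trim23 (-0.20) and Trim25 (-0.21) did not pass at 4 h. Of the other 3 genes of this group on the arrays, none passed the filter on level. On the same T cell arrays 3 of 4 tested markers of natural killer cells fell (summed level 10.56 to 10.60 at 0 h and 9.21 to 9.44 at 4 h), as did 7 of 9 erythroid markers (9.33 to 9.36 and 5.83 to 5.88). Of the T cell markers 8 of 12 fell and 2 rose (12.40 to 12.46 and 11.65 to 11.80), and of the B cell markers 5 of 11 rose and 1 fell (5.89 to 6.13 and 6.32 to 6.92). In B cells 2 of 3 tested dendritic cell markers rose with LPS, and 9 of 11 B cell markers fell. Their part in these results was not tested.

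Trim30a, an interferon-induced gene known to restrain Toll-like receptor signalling, read 11.74, 11.79 and 11.75 in B cells at 0 h and 13.26, 13.40 and 13.29 after LPS. In T cells it read 11.32, 11.28 and 11.39 at 0 h, 10.64, 10.66 and 10.71 at 4 h, and 10.89, 10.99 and 10.92 at 14 h. The B LPS arrays were thus the highest of all and the ConA 4 h arrays the lowest, with no overlap between neighbouring groups. The change was 1.55 ± 0.06 (SE; adjusted p = 1.43e-11) with LPS and -0.66 ± 0.06 (adjusted p = 3.71e-07) with ConA at 4 h. Its close relative Trim30d read 10.39, 10.46 and 10.23 in B cells at 0 h and 12.68, 12.62 and 12.71 after LPS. In T cells Trim30d read 9.36, 9.27 and 9.36 at 0 h and 8.25, 8.68 and 8.71 at 4 h. These groups did not overlap either, and the changes were 2.31 ± 0.11 and -0.78 ± 0.11 (adjusted p = 8.20e-11 and 1.79e-05). A further probe set of each gene moved the same ways, by 1.69 and -0.55 for Trim30a and by 3.69 and -1.15 for Trim30d.

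Rnf213, a large interferon-induced ATPase and ligase, differed by 3.50 ± 0.10 between the 2 responses. It read 9.54, 9.53 and 9.53 in B cells at 0 h and 11.72, 11.72 and 11.73 after LPS. In T cells the values were 9.93, 9.89 and 9.81 at 0 h, 8.46, 8.68 and 8.57 at 4 h, and 8.31, 8.40 and 8.48 at 14 h. The spread within groups was small against both changes, 2.19 ± 0.07 with LPS and -1.31 ± 0.07 with ConA at 4 h (adjusted p = 1.41e-12 and 1.20e-09). Trim14, an adaptor of the mitochondrial antiviral complex, read 9.65, 9.73 and 9.76 in B cells at 0 h and 10.25, 10.14 and 10.35 after LPS. T cells had 8.66, 8.61 and 8.57 at 0 h and 6.85, 6.86 and 7.08 at 4 h. Neither pair of groups overlapped, and the changes were 0.53 ± 0.10 and -1.69 ± 0.10 (adjusted p = 0.000308 and 6.60e-09). A dimmer probe set of Trim14 moved by 0.36 and -2.02.

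Trim25, the ligase that activates the RNA sensor RIG-I, had the smallest changes of the 5 with its brightest probe set. It read 10.69, 10.86 and 10.64 in B cells at 0 h and 11.20, 11.18 and 11.20 after LPS, a rise of 0.46 ± 0.09. T cells had 10.04, 10.02 and 9.92 at 0 h and 9.47, 9.76 and 9.77 at 4 h, a change of -0.33 ± 0.09. That fall depends on the probe set: a second bright one fell by 0.45, a dimmer one gave 0.84, and the mean of all 3 gave 0.02. It also depends on the arrays with a high spike-in difference. Without T 0 h replicate 2 and T ConA 4 h replicate 1 the change was -0.21 (limma, adjusted p = 0.0539), which did not pass. The rise in B cells was seen with each of the 3, at 0.46, 0.60 and 2.29. At 14 h with ConA it gave -0.07, which did not pass the test.

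Of these genes, Trim34a, Trim5, Trim12a, Trim12c, Trim30a and Trim30d lie in this order in 1 cluster on chromosome 7, with 4 other protein-coding genes between the first and the last, among them Trim34b, Trim30b and Trim30c. Neighbours in the cluster moved apart with LPS. Trim30d and Trim30a rose, as given, and Trim12c rose by 0.79 ± 0.09. Trim5, from the family of retroviral restriction factors, fell by 2.58, from 9.57, 9.53 and 9.37 to 6.78, 6.94 and 7.01. Trim34a fell by 1.48, from 12.86, 12.92 and 12.97 to 11.45, 11.43 and 11.42, and Trim12a fell by 0.65. In T cells at 4 h 5 of the 6 fell, by 0.32 (Trim12a) to 0.78 (Trim30d), and Trim12c gave 0.13. The responses to LPS and ConA differed by the interaction test for Trim5 (-2.004 ± 0.13, adjusted p = 1.05e-08), Trim34a, Trim30a and Trim30d. For Trim12a and Trim12c that test depends on the probe set: the interaction was -0.33 and 0.66 with the brightest one, 0.47 and 0.16 with the mean of all, and 1.26 and -0.33 with the most variable one. Paralogs here are nearly alike in sequence, and probe sets may take up signal from a neighbour's transcript, so the values of single genes are uncertain. Further probe sets of Trim12a (0.13) and Trim12c (-0.34) did not share the sign of the LPS changes above, while Trim5 had only 1 probe set.

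The promoter regions of the cluster are shown because these neighbours, by their brightest probe sets, went opposite ways in B cells, while in T cells 5 of the 6 fell at 4 h. Each line gives 100 bases before to 30 bases after the start of a gene, 5′ to 3′ on the gene's strand, from the RefSeq promoter table for GRCm38.p6. Capitals mark matches to GAAANNGAA on either strand, the core of the element bound by interferon regulatory factors, and in Trim25 also to CACGTG, an E-box. Trim21 and Trim25 are antiviral Trim genes outside the cluster, and Rnf213 is shown because its whole window holds neither motif. Trim14 was not found in the promoter table and was not searched.
Trim34a, chr7:104244357-104244486, plus strand: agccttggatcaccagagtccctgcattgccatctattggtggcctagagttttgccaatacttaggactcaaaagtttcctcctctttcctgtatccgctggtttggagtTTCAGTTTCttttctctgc
Trim5, chr7:104288077-104288206, minus strand: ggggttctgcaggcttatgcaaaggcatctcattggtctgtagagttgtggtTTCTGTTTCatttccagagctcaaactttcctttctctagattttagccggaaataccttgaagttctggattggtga
Trim12a, chr7:104315466-104315595, minus strand: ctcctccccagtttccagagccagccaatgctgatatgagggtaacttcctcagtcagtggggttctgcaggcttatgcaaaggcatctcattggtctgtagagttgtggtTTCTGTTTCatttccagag
Trim12c, chr7:104353320-104353449, minus strand: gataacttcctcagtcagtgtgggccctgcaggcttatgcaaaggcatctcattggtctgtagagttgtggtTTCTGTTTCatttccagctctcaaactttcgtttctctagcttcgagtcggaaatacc
Trim30a, chr7:104465164-104465293, minus strand: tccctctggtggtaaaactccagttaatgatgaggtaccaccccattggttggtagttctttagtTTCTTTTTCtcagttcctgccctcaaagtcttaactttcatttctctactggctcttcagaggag
Trim30d, chr7:104507820-104507949, minus strand: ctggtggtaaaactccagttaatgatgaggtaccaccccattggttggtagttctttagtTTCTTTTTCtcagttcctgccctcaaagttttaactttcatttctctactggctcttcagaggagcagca
Trim21, chr7:102565453-102565582, minus strand: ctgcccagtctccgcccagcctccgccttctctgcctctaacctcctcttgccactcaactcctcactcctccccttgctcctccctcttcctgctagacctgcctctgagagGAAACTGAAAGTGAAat
Trim25, chr11:88999303-88999432, plus strand: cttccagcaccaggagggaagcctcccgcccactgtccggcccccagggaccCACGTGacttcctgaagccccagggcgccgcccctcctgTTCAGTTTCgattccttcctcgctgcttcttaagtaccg
Rnf213, chr11:119389999-119390128, plus strand: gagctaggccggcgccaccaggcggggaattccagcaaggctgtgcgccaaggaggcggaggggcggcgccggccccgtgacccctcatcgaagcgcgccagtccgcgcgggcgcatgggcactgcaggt

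The same match, TTCTGTTTC, stood in Trim5, Trim12a and Trim12c, which fell, fell and rose with LPS by their brightest probe sets. For Trim12a and Trim12c that direction depends on the probe set. The mean of all probe sets gave -0.26 and 0.22, which did not pass. TTCTTTTTC stood in Trim30a and Trim30d, which both rose. These promoters are copies of each other in part: the windows of Trim5 and Trim12a share an unbroken run of 241 bases, those of Trim30a and Trim30d 118, and those of Trim5 and Trim12c 71. Trim30a has a second start in the table, and its window holds the same letters.

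Over windows of 250 bases before to 50 after a start, 67 of the 85 genes matched the promoter table, with 87 windows. GAAANNGAA stood in the windows of 14 of the 67 genes (20.9%), against 9.76% of all genes in the table and 8.80% of the genes tested here. In the antiviral Trim group it stood in 9 of 11 matched genes, and in the other groups in 5 of 56. Of the matched genes that fell with ConA at 4 h, 9 of 23 held it, and of those that rose 2 of 18. With LPS it stood in 6 of the 27 that rose and 6 of the 29 that fell. CACGTG, the E-box that Myc binds, stood in 5 of the 67 (7.46%), against 8.09% of all genes in the table and 12.7% of those tested: Trim25, Trim39, Rnf44, Rnf145 and Rnf166. GGGANTTTC, a form of the NF-kB site, stood in none of the 67, against 1.29% of all genes in the table. TTCNNNGAA, a Stat site, stood in 5 (7.46%), against 9.55%. All motifs were searched on both strands. The promoters of paralogs are not independent, and a match in letters is a description only.

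The other antiviral Trim genes moved little with LPS by their brightest probe sets. Trim21, a cytosolic antibody receptor, gave 0.14, Trim26 -0.11 and Trim56, which acts on the DNA-sensing pathway, -0.02. None of these passed the test, though with array medians set equal Trim21 gave 0.22 and passed. With ConA, Trim21 fell by 0.41 at 4 h and Trim26 fell by 0.40 at 4 h and by 0.94 at 14 h. A dimmer probe set of Trim21 gave 0.58 with LPS, and -0.27 at 4 h and 0.60 at 14 h with ConA. A dimmer probe set of Trim26 gave 0.05 at 4 h. Trim56 was 0.02 at 4 h and fell by 0.58 at 14 h. Trim23, another ligase of antiviral signalling, fell by 0.31 at 4 h with ConA with its brightest probe set, but its mean over probe sets was 0.01. With LPS its brightest probe set gave -0.15, which did not pass, and a dimmer one gave 0.61.

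The sensors and kinases that these ligases act on were counted from a list of 11 tested genes of RIG-I and STING signalling. With LPS 7 rose and 4 fell (median 1.20), against 37.6% and 42.3% of all genes. With ConA at 4 h 1 rose and 9 fell (median -0.54), against 33.4% and 32.5% of all genes. The RNA sensor Ifih1 rose by 3.63 ± 0.11 with LPS and changed by -0.54 ± 0.11 with ConA. The transcription factor Irf7 changed by 3.34 ± 0.11 and -0.71 ± 0.11, and Dhx58, a regulator of the sensors, by 2.84 ± 0.14 and -1.98 ± 0.14. Ddx58, the gene of RIG-I itself, changed by 1.20 ± 0.13 and -1.76 ± 0.13. The DNA sensor Cgas rose in both, by 3.20 ± 0.09 and 0.92 ± 0.09, while the adaptor Sting1 fell in both, by 2.68 with LPS and by 0.91 with ConA.

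**Figure D3:**
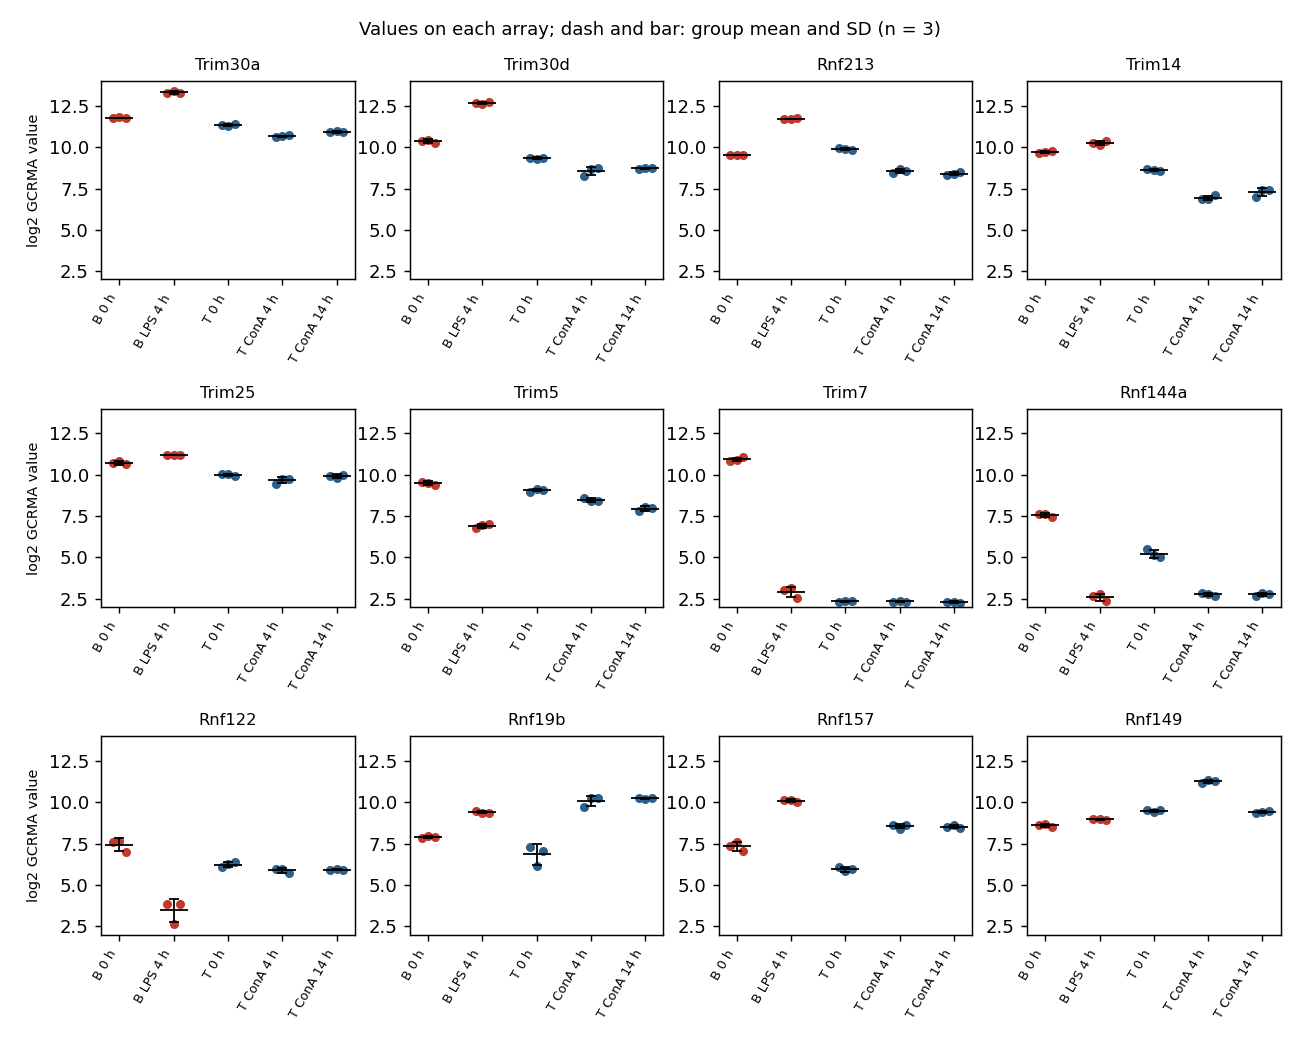
Log2 GCRMA values of 12 genes on each array (points, B cells red and T cells blue), with group mean and SD (dash and bar, n = 3), for the 5 groups along the horizontal axis. Trim7 and Rnf144a drop to the lower limit of 2.24 or near it after stimulation, the upper row moves up with LPS and down with ConA, and Rnf149 is high at 4 h with ConA only.

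Among the Trim cofactors of transcription and chromatin, Trim28 rose and its relatives fell. Trim28 (KAP1), the co-repressor that zinc finger proteins recruit to silence retroviral elements, rose by 1.18 ± 0.07 with LPS and 0.49 ± 0.07 with ConA at 4 h. Trim24 and Trim33, which share its domain layout, fell by 0.78 and 0.45 with LPS and by 0.35 and 0.19 with ConA. Trim8 and Trim68 fell by 1.26 and 1.38 with LPS. Trim27 rose by 0.75 ± 0.10. Of these 6 genes 2 rose and 4 fell with LPS (37.6% and 42.3% of all genes). With ConA at 4 h 2 rose and 3 fell (33.4% and 32.5% of all genes). Of 7 tested partners of Trim28, 3 rose and 1 fell with LPS, and none rose and 4 fell with ConA at 4 h by limma. At an unadjusted p under 0.05 none rose either. The histone methyltransferase Setdb1 rose by 1.18 ± 0.10 with LPS and was 0.10 ± 0.10 with ConA, Chd3 changed by 0.01 ± 0.09 and -1.27 ± 0.09, and Atf7ip fell by 1.19 with LPS and by 1.16 with ConA.

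Trim7, known to bind the glycogen primer glycogenin, showed the largest change of the 85 genes. It read 10.86, 10.88 and 11.05 in B cells at 0 h and 3.05, 3.15 and 2.55 after LPS. The T arrays lay between 2.24 and 2.36. Trim7 passed the filter on level through the B 0 h group alone, so its change is given with no test: -8.01 ± 0.12, a lower bound of the fall, and the 2 dimmer probe sets of Trim7 fell by 4.41 and 5.67. Myeloid markers fell on the same arrays: 7 of 8 tested fell with LPS (median -3.37), among them Csf1r from 9.33 to 2.37 and Lyz2 from 10.54 to 6.14. Their summed level was 9.28 to 9.38 on the B 0 h arrays and 8.25 to 8.47 after LPS, with Itgam and Cd14 near the lower limit in both groups. The part of myeloid cells in the fall of Trim7 and of the other genes that fell in B cells was not tested.

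Trim35 and Trim59 fell in both cell types, further in B cells. Trim35 fell by 2.58 and Trim59, a membrane-bound member, fell by 2.40 with LPS, and at 4 h with ConA they fell by 0.81 and 0.24 (interactions -1.77 ± 0.09 and -2.17 ± 0.09, adjusted p = 1.12e-09 and 1.26e-10). For each of them a dimmer probe set gave 0.00 with ConA at 4 h. That of Trim35 read 2.29 in T cells at 0 h, near the lower limit, and could show no fall, while another gave -0.23. That of Trim59 read 4.72 at 0 h. Trim11 fell by 1.34 with LPS, by 0.45 at 4 h and by 1.00 at 14 h with ConA. Trim39 fell by 0.49 with LPS and, at 14 h with ConA, by 1.14. Trim37, a ligase of centrosome control, rose by 2.09 ± 0.10 with LPS (adjusted p = 1.11e-10) and 0.41 ± 0.10 with ConA. All 5 of its probe sets rose with LPS, by 1.39 to 3.32. Trim13, anchored in the ER, rose by at least 1.01 ± 0.18 with LPS, from 2.78, near the lower limit, to 3.79. With ConA at 4 h it gave 0.43 ± 0.18 (adjusted p = 0.0482, limma), and the call was lost with any 1 T cell array left out (adjusted p 0.0561 to 0.161). Trim32, with NHL repeats, changed by 0.03 with LPS and 0.29 with ConA, and neither value passed the test. None of the 8 Trim genes of cytoskeleton and muscle on the arrays passed the filter on level.

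Trim10, needed for red blood cell maturation, was high on B arrays only. It read 9.25, 8.86 and 8.29 at 0 h and 7.52, 7.20 and 7.30 after LPS, and 2.28 to 2.30 on T arrays. It fell by 1.46 on the log2 scale with LPS, beside 9 of 9 tested erythroid markers, whose median change was -1.43. Alas2 and Epb42, like Trim10, were at 10.16 and 8.15 in B cells and at the lower limit of 2.24 in T cells at 0 h. Klf1 (7.94) and Car1 (12.18) were not at the limit in T cells at 0 h. In T cells 7 of 9 erythroid markers fell with ConA at 4 h. The part of red cell precursors in the level of Trim10 was not tested.

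**Figure D4:**
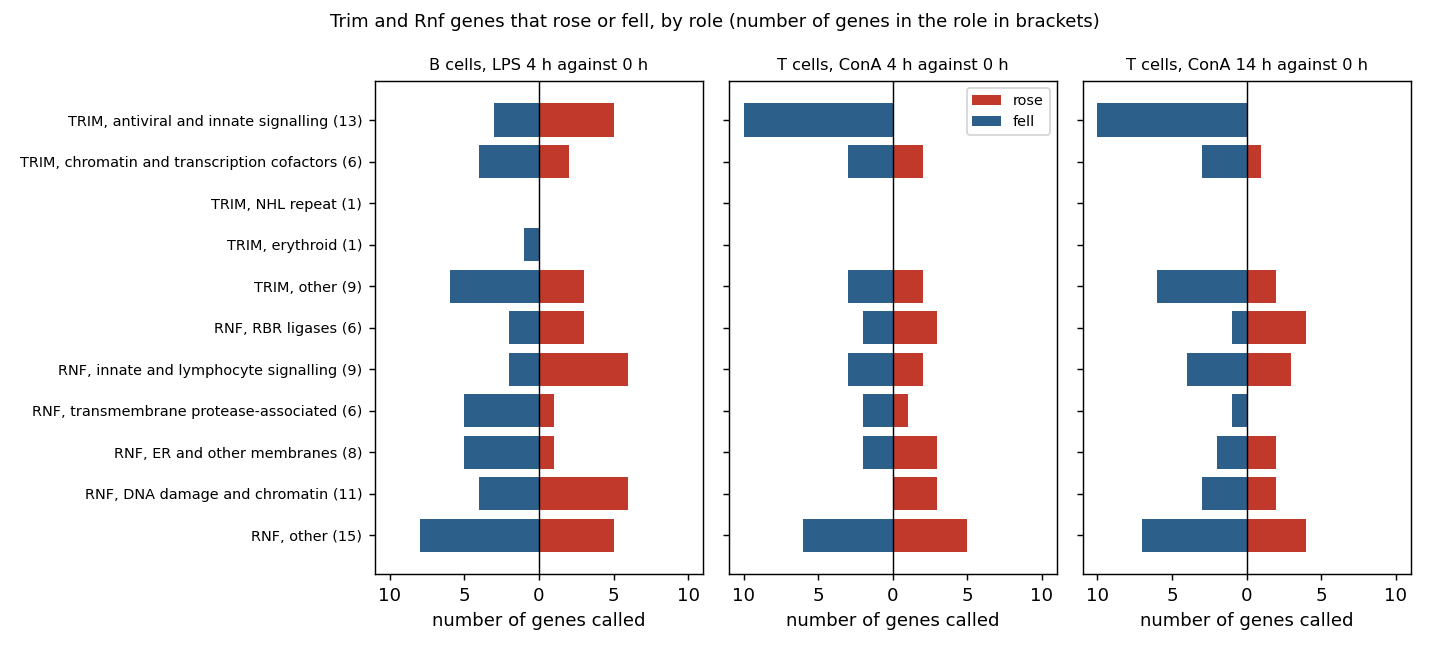
Number of genes that rose (red, to the right) and fell (blue, to the left) in each role, for LPS at 4 h in B cells and ConA at 4 h and 14 h in T cells, with the number of genes in the role in brackets. The antiviral Trim group has 5 rises and 3 falls with LPS and 10 falls with ConA at either time.

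The RBR ligases held the largest rise of the 85 genes in T cells, Rnf19b, and the largest Rnf fall in both cell types, Rnf144a. Rnf19b, a ligase of natural killer cell killing, read 7.30, 6.16 and 7.09 in resting T cells, 9.74, 10.29 and 10.25 at 4 h and 10.26, 10.21 and 10.24 at 14 h. In B cells it read 7.86, 7.99 and 7.88 at 0 h and 9.50, 9.39 and 9.39 after LPS. None of these groups overlapped with its 0 h group, and the changes were 3.24 ± 0.22 and 3.39 ± 0.22 with ConA at 4 h and 14 h, and 1.51 ± 0.22 with LPS. The rise at 4 h was larger in T cells (interaction -1.73 ± 0.32, adjusted p = 0.000284). T 0 h replicate 2, with its high spike-in difference, had the lowest of the T 0 h values, and without it and T ConA 4 h replicate 1 the rise was 3.08 Rnf19a (Dorfin), its relative, rose by 2.09 ± 0.12 and 1.60 ± 0.12 with ConA and 0.55 ± 0.12 with LPS.

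Rnf144a, a ligase of the DNA damage kinase DNA-PKcs, read 7.64, 7.64 and 7.44 in B cells at 0 h and 2.66, 2.78 and 2.36 after LPS. T cells had 5.48, 5.16 and 5.01 at 0 h, 2.86, 2.78 and 2.66 at 4 h and 2.66, 2.85 and 2.78 at 14 h. All stimulated arrays thus lay within 1 of the lower limit, and the changes of -4.98 ± 0.13 with LPS and -2.46 ± 0.13 with ConA at both times are lower bounds of the falls. Rnf31 (HOIP), the catalytic subunit of the linear ubiquitin complex LUBAC, rose by 1.21 ± 0.09 with LPS and was 0.19 ± 0.09 with ConA at 4 h, which did not pass. Rnf14 fell by 0.89 with LPS and by 0.52 with ConA at 4 h, where a dimmer probe set gave 0.04. This probe set read 2.71 in T cells at 0 h, near the lower limit, and the others gave -0.46 and -0.57. Rnf216 (Triad3), a ligase of Toll-like receptors, rose by 0.61 ± 0.11 with ConA at 4 h and was 0.18 ± 0.11 with LPS.

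The partners of LUBAC went both ways. Of 8 tested, 2 rose and 4 fell with LPS (37.6% and 42.3% of all genes). With ConA at 4 h 3 rose and 3 fell (33.4% and 32.5% of all genes). The subunit Sharpin fell by 1.31 with LPS, and the subunit Rbck1 was 0.03 ± 0.06. The deubiquitinases Otulin and Cyld both fell with LPS, by 1.09 each. Tnfaip3 (A20), which restrains the same pathway, rose by 3.48 ± 0.06 with LPS and 2.90 ± 0.06 with ConA. Rnf11, an adaptor of the A20 complex, rose by 0.67 ± 0.08 and 0.99 ± 0.08.

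In the Rnf group of innate and lymphocyte signalling, 6 of 9 rose and 2 fell with LPS (37.6% and 42.3% of all genes). With ConA at 4 h 2 rose and 3 fell (33.4% and 32.5% of all genes). Besides Rnf213 and Rnf11, Rnf126, a ligase of cytosolic protein quality control, rose by 1.79 ± 0.14 with LPS and 0.81 ± 0.14 with ConA. Rnf115 and Rnf114 rose by 0.93 ± 0.11 and 0.59 ± 0.09 with LPS. With ConA they gave -0.02 and 0.00, which did not pass. For Rnf114 this depends on the probe set. A second bright one gave 0.68 with LPS, which did not pass (limma, adjusted p = 0.328). With ConA that probe set gave 0.58 at 4 h and 1.13 at 14 h, while another gave 0.04 and 0.18. Rnf41 (Nrdp1), a ligase of growth factor and cytokine receptors, fell by 1.48 with LPS and was 0.26 with ConA at 4 h (interaction -1.74 ± 0.20, adjusted p = 3.28e-06).

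Rnf166 fell in T cells, and the difference from B cells was itself tested. The gene read 10.40, 10.24 and 10.54 in resting T cells, 9.12, 8.97 and 8.94 at 4 h and 8.78, 8.76 and 8.73 at 14 h. In B cells Rnf166 read 7.80, 7.93 and 7.83 at 0 h and 7.85, 7.83 and 7.81 after LPS. The groups of T cells did not overlap and those of B cells did. The change was -1.38 ± 0.08 with ConA at 4 h (adjusted p = 2.94e-09) and -0.02 ± 0.08 with LPS, and the interaction was 1.36 ± 0.11 (adjusted p = 1.28e-07). Rnf125 (TRAC-1), a membrane-bound ligase of T cell activation and RIG-I, gave -0.31 at 4 h with ConA and fell by 0.83 at 14 h.

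Among the membrane ligases, most with a protease-associated domain, 5 of 6 fell with LPS and Rnf149 rose (median -2.33). Of all genes 42.3% fell and 37.6% rose. With ConA at 4 h 1 rose and 2 fell (median -0.28), against 33.4% and 32.5% of all genes. Rnf122 read 7.62, 7.68 and 6.97 in B cells at 0 h and 3.87, 2.64 and 3.87 after LPS, a change of -3.96 ± 0.27 (adjusted p = 6.53e-09). The value of 2.64 lies near the lower limit, and a dimmer probe set fell from 5.35 to 2.24, so the fall may be larger. In T cells it read 6.09, 6.25 and 6.36 at 0 h and 5.97, 5.97 and 5.71 at 4 h. These T cell arrays did not overlap, but the change of -0.35 ± 0.27 did not pass. The endosomal ligases Rnf130 and Rnf13 fell by 2.52 and 2.496 with LPS, and Rnf130 fell by 0.49 with ConA while Rnf13 gave -0.21. Rnf167, an endosomal and lysosomal ligase, fell by 2.17 with LPS and fell by 1.49 and 1.44 with ConA at 4 h and 14 h. Of the 11 genes of this group on the arrays 5 did not pass the filter on level, Rnf128 among them, the anergy ligase GRAIL.

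Rnf149 was the exception in this group, with a rise at 4 h that was not there at 14 h. The values were 9.51, 9.43 and 9.53 in resting T cells, 11.16, 11.33 and 11.31 at 4 h and 9.38, 9.40 and 9.49 at 14 h. In B cells it read 8.65, 8.69 and 8.52 at 0 h and 8.97, 9.01 and 8.95 after LPS. The ConA 4 h arrays stood above all others, and the 14 h arrays overlapped those of 0 h. The rise was 1.77 ± 0.07 at 4 h (adjusted p = 5.61e-11) and 0.36 ± 0.07 with LPS, and the change at 14 h against 0 h was -0.07. The interaction at 4 h was -1.42 ± 0.10 (adjusted p = 1.89e-08). Rnf149 has 1 probe set on the arrays.

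Genes listed for the ligases of anergy and the T cell receptor pathway, not all of them ligases, went both ways. All lie outside the 2 families. Of 11 tested, 2 rose and 7 fell with LPS (37.6% and 42.3% of all genes). With ConA at 4 h 2 rose and 4 fell (33.4% and 32.5% of all genes). Dtx1 fell by 2.11 with LPS and by 7.49 with ConA, Nedd4 by 2.86 and 2.93. Cblb rose by 1.06 ± 0.07 and 1.83 ± 0.07.

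Ligases of the ER and other inner membranes moved unevenly. Of 8, 1 rose and 5 fell in B cells with LPS (37.6% and 42.3% of all genes). In T cells at 4 h 3 rose and 2 fell (33.4% and 32.5% of all genes). Rnf121, a ligase of the ER and Golgi, was the rise in B cells and the largest in T cells. It read 6.94, 7.18 and 6.63 in B cells at 0 h and 8.46, 8.56 and 8.61 after LPS. T cells had 6.44, 6.67 and 6.70 at 0 h, 7.96, 8.07 and 8.09 at 4 h and 8.05, 7.98 and 8.33 at 14 h. The rises were 1.63 ± 0.13 with LPS and 1.44 ± 0.13 and 1.51 ± 0.13 with ConA. The difference between the cell types at 4 h was 0.19 ± 0.18 (adjusted p = 0.385), which did not pass. Rnf5 and Rnf185 both serve the degradation of ER proteins. Rnf5 fell by 1.26 with LPS, while Rnf185 was -0.08 with LPS and rose by 0.60 ± 0.16 with ConA. Rnf103 and Rnf145, the latter a ligase of cholesterol synthesis, fell by 1.03 and 0.85 with LPS. Rnf26 gave 0.00 with LPS and 0.25 with ConA at 4 h.

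The Rnf genes of DNA damage and chromatin went both ways in B cells and, at 14 h, in T cells. Of 11, 6 rose and 4 fell with LPS (median 0.39), against 37.6% and 42.3% of all genes. With ConA at 4 h 3 rose and none fell by limma (median 0.10), against 33.4% and 32.5% of all genes. Nor did any fall at an unadjusted p under 0.05. At 14 h 2 rose and 3 fell (36.6% and 31.9% of all genes), with changes from -0.66 to 0.63. Rnf4, which targets SUMO-modified proteins, rose by 1.25 ± 0.07 with LPS and 0.37 ± 0.07 with ConA at 4 h. A second bright probe set of Rnf4 gave 1.33 with LPS, and 1.73 and 1.83 with ConA at 4 h and 14 h. Rnf2 (Ring1B), the H2A ligase of Polycomb complexes, rose by 0.68 ± 0.07 with LPS, and Rnf20, an H2B ligase, by 0.59 ± 0.07. The 2 ligases that act in turn at DNA breaks moved apart with LPS: Rnf8 rose by 0.53 ± 0.08 and Rnf168 fell by 1.18. With ConA at 4 h Rnf168 gave 0.03. Of 11 tested partners of H2A and H2B ubiquitylation 7 rose and 3 fell with LPS and 4 rose and 2 fell with ConA at 4 h. The Polycomb subunits Pcgf5 and Pcgf6 rose by 3.09 ± 0.10 and 2.30 ± 0.10 with LPS, and with ConA Pcgf5 gave -0.14 ± 0.10 and Pcgf6 1.10 ± 0.10. Of 12 tested partners of DNA break signalling 7 rose and 3 fell with LPS, and 3 rose and 3 fell with ConA.

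Among the remaining Rnf genes, Rnf157, a relative of the membrane trafficking ligase Mgrn1, rose most in B cells. It read 7.34, 7.63 and 7.08 at 0 h and 10.14, 10.16 and 10.005 after LPS. In T cells it read 6.11, 5.82 and 5.94 at 0 h, 8.64, 8.42 and 8.62 at 4 h and 8.51, 8.62 and 8.43 at 14 h. The 0 h arrays lay below all stimulated arrays of the same cell type. The rise was 2.75 ± 0.12 with LPS (adjusted p = 6.47e-11) and 2.60 ± 0.12 with ConA at 4 h (adjusted p = 4.47e-10). The difference of 0.15 ± 0.17 between the cell types did not pass (adjusted p = 0.468). Rnf220 rose by 1.28 ± 0.07 and 0.44 ± 0.07. Rnf181, Rnf141 and Rnf214 fell by 1.87, 1.77 and 1.55 with LPS. For Rnf214 the 3 other probe sets gave -0.79, -0.08 and -0.01, and the mean of all 4 was -0.61. Rnf227, which passed the filter on level through the ConA 14 h group alone, gave 0.92 ± 0.18 at 4 h and 1.37 ± 0.18 at 14 h with ConA, and 0.11 with LPS. Rnf6 fell by 0.35 with LPS and by 0.30 with ConA at 4 h.

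The E2 enzymes that RING ligases work with moved unevenly. Of 11 tested, 6 rose and 3 fell with LPS (37.6% and 42.3% of all genes). With ConA at 4 h 3 rose and 1 fell (33.4% and 32.5% of all genes). Ube2e2 fell by 3.92 with LPS and rose by 0.76 ± 0.20 with ConA. Ube2d1 fell by 1.62 with LPS, and Ube2k rose by 0.83 ± 0.05.

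Between 4 h and 14 h with ConA, 32 of the 85 genes changed, 11 higher and 21 lower (48.9% of all genes, 27.4% higher and 21.5% lower). Rnf149, which fell by 1.84 (SE 0.07, adjusted p = 2.89e-10), was the 1 gene with a change of at least 2-fold, against 7.47% of all genes (4.16% up and 3.32% down). Groups did not overlap for 34 of the 85 (58.7% of all genes). Trim39 and Trim56 fell by 0.96 and 0.60. Rnf5 rose by 0.68 ± 0.17, Rnf130 by 0.61 ± 0.08 and Trim8 by 0.52 ± 0.09.

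At 0 h 70 of the 85 genes differed between B and T cells, 35 higher and 35 lower in B cells (76.6% of all genes, 25.5% higher and 51.1% lower). The median of all genes was -0.27 (B minus T). With array medians set equal it was -0.02 and the split was 43 higher and 21 lower, and with cyclic loess -0.13 and 40 higher and 31 lower. Every B array had a lower spike-in difference than any T array, so labelling and cell type cannot be told apart here. Differences of at least 2-fold were found for 23 genes, 16 higher and 7 lower in B cells (32.5% of all genes, 12.2% higher and 20.3% lower). Groups did not overlap for 70 of the 85 (79.8% of all genes).

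Trim7 (8.58 ± 0.12) and Trim10 (6.505 ± 0.17) were highest in B over T cells, and both lay near the lower limit in T cells, so these are bounds. On the same B arrays 8 of 8 myeloid markers (median 3.59) and 8 of 9 erythroid markers (median 2.56) were higher than on T arrays, and their part was not tested. Trim7 and Trim10 were followed by Rnf216, at 8.94, 8.98 and 8.77 in B cells and 5.40, 5.50 and 5.58 in T cells. Its difference was 3.40 ± 0.11. Rnf130 (2.46 ± 0.08), Rnf144a (2.35 ± 0.13) and Trim34a (2.01 ± 0.08) came next. Rnf125 stood at the other end, at 2.24, 2.24 and 2.27 in B cells and 10.44, 10.25 and 10.69 in T cells, so its difference of -8.21 ± 0.15 is a bound. Rnf125 passed the filter on level through T cells alone, and no test is given. Trim32 read 4.51, 4.46 and 4.46 in B cells and 7.56, 7.99 and 7.41 in T cells (-3.17 ± 0.17). Rnf166 (-2.54 ± 0.08), Trim13 (-2.45 ± 0.18, a bound, since B cells read 2.78), Trim8 (-1.24 ± 0.09) and Rnf7, a subunit of cullin ligases (-1.18 ± 0.11), were lower in B cells as well. Rnf19a was lower in B cells with its brightest probe set (-1.28 ± 0.12), but a second gave 0.11.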

How the data were processed

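Total RNA of 15 samples was labelled with biotin and hybridised to Affymetrix arrays. The deposited values are log2 signals that the authors made with GCRMA, per the submitters' processing notes, with the version not given in the sources used here. Gene names came from the platform's annotation, and all 85 symbols were the same by Entrez number in the RefSeq table for GRCm38.p6. Another 5 probe sets that name several genes, a Trim or Rnf gene among them, were left out. Of the 85 probe sets used, 6 have a suffix for sequences found in several genes (among them those of Trim37, Rnf20 and Rnf114).

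The limma package (3.58.1, under R 4.3.3) fitted a single group-means model over 15 arrays (moderated by eBayes, with 10 residual and 3.16 prior degrees of freedom) on 9045 genes, with Benjamini-Hochberg adjustment per comparison and a call at an adjusted p under 0.05. Errors are standard errors of that fit, or SDs over 3 arrays. The script was tested on simulated data. Tables and figures used Python 3.11.15 with pandas 2.3.3 and matplotlib 3.10.9. The number of arrays limits the precision, and levels of different genes were not compared.

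The genes, the roles and the lists of partners and markers were chosen with earlier results of these data known. Named were, per comparison, up to 12 rises and 12 falls that were called, at least 2-fold and at 6 or more in the mean of the higher group, from each role the 2 genes with the largest called change and the 1 with the smallest change, and up to 3 genes of a list. Not all of these are described above: Trim44, Rnf138 and Rnf215, with the smallest change in their roles, were left out. The other antiviral Trim genes and further single genes were named after their values were seen. Alternatives were other scalings, filters on level, choices of probe set, priors, a replicate block and leaving out arrays. Motifs were searched in the RefSeq promoter table, and protein sequences were not used here.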

Additional observations from a re-analysis of the deposited data

Results flagged for a closer look

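At 4 h the 5 genes below rose with LPS in B cells and fell with ConA in T cells. This was so in all 3 arrays a group. The difference between the 2 responses passed at limma's interaction term, adjusted over 9045 genes. The genes were picked by their opposite calls on the same arrays, so that test could hardly fail. It is no separate support. The difference was 3.50 ± 0.10 (log2, SE) for Rnf213, 3.09 ± 0.15 for Trim30d, 2.22 ± 0.15 for Trim14, 2.21 ± 0.09 for Trim30a and 0.79 ± 0.13 for Trim25. The adjusted p was 1.90e-12, 5.15e-10, 1.41e-08, 4.94e-11 and 9.65e-05 in the same order. For Trim25 the fall in T cells depends on the probe set and on the arrays with a high spike-in difference, as given above. LPS and ConA, B and T cells, and the marker levels of other cells differ together here, and their parts were not tested.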

How the results depend on the processing

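The counts of genes changed kept within 1.5 times under the other scalings, filters, probe set choices, priors and left-out arrays, and moved only where a change of at least 2-fold was asked for: 35 with LPS, 10 and 12 with ConA at 4 h and 14 h, 1 between 14 h and 4 h, 23 between B and T cells and 25 for the interaction. Leaving out 1 array in turn gave 72 to 72 genes with LPS, 49 to 54 and 52 to 59 with ConA, 25 to 33 between 14 h and 4 h, 67 to 71 between B and T cells and 61 to 67 for the interaction. Of the 345 called changes of the 85 genes, 38 were lost when some 1 array was left out and none changed sign, and none of the 106 of at least 2-fold was lost. With the replicate number as a block, the counts were 72, 51, 54, 29, 70 and 64 in the order above. The labels only number the samples, and the numbers do not pair them: over 30 pairs of the same number the correlation of deviations ran from -0.46 to 0.24, with 3 over 0.1, and 2 of 15 arrays correlated best with their own number. Probe set choice reversed 16 called changes with the mean of all probe sets and 32 with the most variable one; the cause was not tested. Among the 189 named values that were checked, those reversed were of changes under 2-fold. With the most variable probe set they were Rnf14 (0.044), Trim26 (0.054), Trim35 (0.0018), Trim23 (0.34) and Trim25 (0.84) with ConA at 4 h, and Trim12a (0.13) and Trim12c (-0.34) with LPS. Those of Rnf14 and Trim35 read 2.71 and 2.29 in T cells at 0 h, near the lower limit, where little or no fall could show. With the mean of all probe sets they were Trim23 (0.0093) and Trim25 (0.022) with ConA at 4 h. The interactions of Trim12a and Trim12c, not counted among these, also changed sign with the choice of probe set, as given above. The difference between the responses of Rnf213 and Trim30d, 3.50 and 3.09 with the brightest probe set, was 1.97 and 3.97 with the mean of all. Of 5059 alternatives to 189 named values, 4991 kept direction and call. Many of these could not move the log2 change, such as leaving out an array of a group outside the comparison. The count is thus no measure of how firm the values are. All 9 reversals of these named values came with another choice of probe set. Signal near the lower limit of 2.24 bounds the changes of Trim7, Trim10, Trim13, Rnf144a and Rnf125, and may bound the fall of Rnf122 with LPS.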
